A study of Mus musculus with 36 samples.

Results

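The NK and cytotoxic effector genes are 10 genes that natural killer (NK) cells and cytotoxic T cells use to recognize and kill target cells. They are Gzma, Gzmb, Prf1, Nkg7, Ncr1, Klrb1c, Klrd1, Klrk1, Eomes, and Tbx21, taken as every non-control probe of the array that carries one of these names. They are measured by 13 of the 39429 non-control probes, and all 10 were among the 15085 genes tested. Their levels were examined in the blood of male C57BL/6J mice, irradiated at 8 to 10 weeks of age and bled 7 days later. There were 6 groups of 6 mice, and each mouse had its own Agilent single-colour array. Control mice were sham-irradiated. The second group received 3 Gy x-rays. The next 3 groups received 3 Gy of a mixed field x-ray/neutron exposure with 5, 15, or 25% neutrons, which is 0.15, 0.45, or 0.75 Gy of neutrons. The last group received 0.75 Gy of neutrons with no x-rays. The array labels call it 100% neutron, but the neutron source also emits photons and the study's methods give 83%, so 83% neutron is used here. It differs from the 25% mixed field in total dose and not in neutron dose. No group carries a transgene or a deletion. Whole blood RNA was depleted of globin transcripts and the cells were not sorted, so each value is a level in mixed blood cells.

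NK cells kill virus-infected or transformed cells without prior immunization. They read activating and inhibitory receptors on their surface, and when activation prevails they release granules whose perforin opens the target membrane to granzymes. The T-box transcription factors Eomes and Tbx21 (T-bet) drive the maturation of NK cells and the effector program of CD8 T cells, so that most of these genes are active in both cell types, whereas Ncr1 is largely restricted to NK cells and related innate lymphocytes. Lymphocytes are among the most radiosensitive cells of the blood, and B cells are more sensitive than NK cells.

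T-bet, Eomes, and RUNX factors control this program, and 2 member promoters are shown for their motifs, that of Nkg7, the only member with the full T-box site, and that of Gzmb, a member differentially expressed in the 25% mixed field. The letters are the 250 bases before the RefSeq start (GRCm38.p6), 5′ to 3′ on the gene's strand. The capitals mark the T-box site AGGTGTGA, its core GTGTGA, or the RUNX core TGTGGT on either strand. Nkg7 lies on the plus strand, and the window is chr7:43436888-43437137. Gzmb lies on the minus strand, and the window is chr14:56262335-56262584.
Nkg7: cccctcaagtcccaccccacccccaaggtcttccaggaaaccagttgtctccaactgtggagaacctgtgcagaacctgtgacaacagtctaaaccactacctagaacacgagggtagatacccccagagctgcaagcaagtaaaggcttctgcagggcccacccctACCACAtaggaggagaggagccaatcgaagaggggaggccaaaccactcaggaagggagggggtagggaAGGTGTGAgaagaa
Gzmb: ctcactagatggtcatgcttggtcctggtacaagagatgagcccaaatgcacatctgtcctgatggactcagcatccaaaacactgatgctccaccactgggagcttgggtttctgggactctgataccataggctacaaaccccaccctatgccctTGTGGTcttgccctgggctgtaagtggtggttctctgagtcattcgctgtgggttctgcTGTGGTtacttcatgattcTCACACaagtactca

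Of the 10 members, 9 had a promoter in the RefSeq table, which lacked an entry for Klrd1. The RUNX core was present upstream of 7 of them (Gzma, Gzmb, Klrb1c, Klrk1, Ncr1, Nkg7, and Prf1), and of 14% of the 32851 promoters in the table. The T-box core was present upstream of 3 (Gzmb, Ncr1, and Nkg7), and of 12.3% of all promoters. The longer T-box site, which contains the core, was present upstream of Nkg7 alone among the members and of 1.12% of all promoters. None of these motifs was found upstream of Eomes and Tbx21. These are matches of letters, and binding was not measured.

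Levels are given as log2 intensity over the median of the array, and differences between groups as log2 fold changes with their standard error (SE). The scale orders the arrays for 1 probe, not different genes. A gene was taken as differentially expressed when limma gave p below 0.001 and its Benjamini-Hochberg adjusted value was under 0.05, fitted across all 15085 genes with the 12 arrays of the comparison. Every member probe was significantly above background on at least 35 of the 36 arrays and none was saturated. The dimmer Eomes probe was well above background, a stricter measure, on 13 arrays and the Klrk1 probe on 35. The arrays had been scanned in 4 sessions on 10 slides. Session 1 held 5 controls and 5 x-ray arrays, session 2 held 5 arrays each of the 5 and 15% mixed fields, and session 3 held all arrays of the 25% mixed field and 83% neutron. Session 4 was a single slide, slide 10, with 1 array each of the controls, x-rays, 5%, and 15%. For the 25% mixed field and 83% neutron, session and radiation therefore cannot be told apart in comparisons with controls or x-rays.

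After 3 Gy x-rays, no NK or cytotoxic effector gene passed the test while much of the blood transcriptome changed. None of the 10 members was differentially expressed, compared with 29.8% of all genes tested. Limma gave 0 members with an unadjusted p below 0.05, compared with 63.9% of all genes, and the random variance test also called 0. The median log2 fold change was 0.08 over the members and -0.11 over all genes. The members ranged from -0.28 for Klrd1, which encodes the CD94 subunit of NK receptors, to 0.47 for Gzmb, which encodes granzyme B. In bulk blood, fewer cells of a type and less RNA per cell cannot be told apart, and neither can their opposites.

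**Figure D1:**
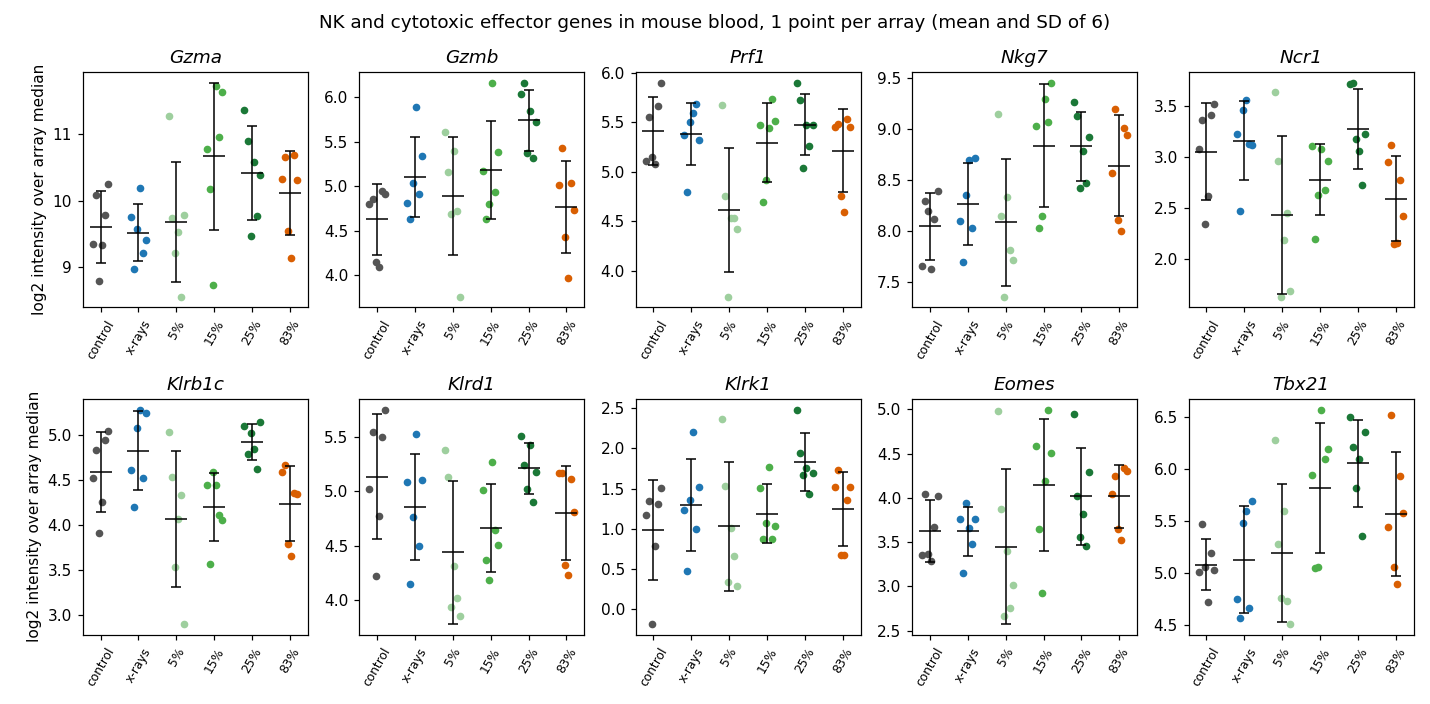
Levels of the 10 members on every array, as log2 intensity over the array median (vertical axis, 1 scale per gene) in the 6 groups (horizontal axis). Points are arrays of 1 mouse each, and the bar and whiskers are the mean and SD of 6. In Gzmb the 6 arrays of the 25% mixed field lie between 5.32 and 6.16, above the highest control at 4.94.

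Gzma encodes granzyme A, which is abundant in resting NK cells. Its level in the controls had a lowest value of 8.80, a median of 9.58, and a highest of 10.25, and after x-rays these were 8.97, 9.49, and 10.19, so the groups overlapped throughout. The difference was -0.09 (SE 0.28, 95% interval -0.69 to 0.52, adjusted p = 0.812 in limma). Prf1, which encodes perforin, had values from 5.08 to 5.90 with a median of 5.35 in the controls and from 4.80 to 5.68 with a median of 5.44 after x-rays. Its difference was -0.03 (SE 0.22, 95% interval -0.49 to 0.44). The intervals of all 10 members after x-rays held 0, and they reached from -0.93 to 1.02.

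The x-ray result depended on which slide was compared. Within session 1, with 5 arrays of each group, 4 of 10 members were higher after x-rays and the differences lay between -0.51 and 0.33 (median -0.05). On slide 2, with 2 arrays of each group, all 10 were lower, with a median of -0.57 and the smallest difference, -0.21, in Gzmb. On slide 10, with 1 array of each group, all 10 were higher, from 0.18 for Prf1 to 1.71 for Klrk1. The members thus lay on opposite sides of 0 on the only 2 slides that held both groups. The x-ray array of replicate 2 had the lowest value of its group in all 10 members. Without it, as without any other single array, 0 members were called after x-rays.

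**Figure D2:**
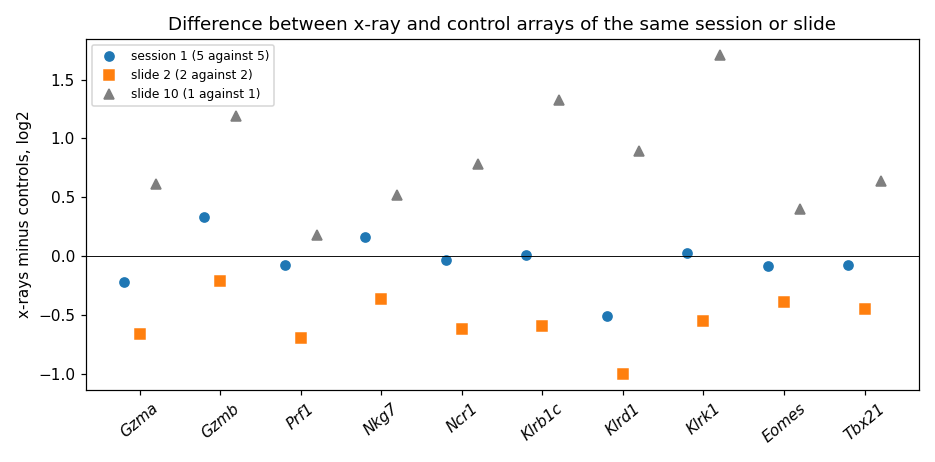
Difference between x-ray and control arrays (x-rays minus controls, log2, vertical axis) for each member (horizontal axis) within session 1, slide 2, and slide 10. Circles for session 1 lie near 0, squares for slide 2 all lie below 0, and triangles for slide 10 all lie above 0.

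The 5% mixed field gave 0 called members in limma and in the random variance test, compared with 23.1% of all genes. One member had an unadjusted p below 0.05, compared with 52.1% of all genes, and the median log2 fold change was -0.07, close to the median of all genes at -0.08. That member was Prf1, with a lowest value of 3.74, a median of 4.53, and a highest of 5.68 at 5%, and 5 of the 6 arrays lay below the lowest control at 5.08. Its difference was -0.80 (SE 0.30, adjusted p = 0.0409 in limma), and its unadjusted p missed the threshold. The 3 lectin-like receptors and Ncr1, which encodes the activating receptor NKp46, had differences of -0.70 for Klrd1, -0.52 for Klrb1c, -0.63 for Ncr1, and 0.04 for Klrk1, all not called. The dimmer Klrb1c probe was instead higher at 5%, with a mean of 1.91, compared with 1.64 in the controls.

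One array, replicate 1 of the 5% mixed field, had the highest value of its group in all 10 members. In Gzma it read 11.27, compared with a group median of 9.64, and in Eomes it read 4.98, compared with 3.21. Without it, Prf1 differed from the controls by -1.01 (adjusted p = 0.00664 in limma), Ncr1 by -0.87 (adjusted p = 0.0358), and Klrd1 by -0.89 (adjusted p = 0.0413), and 0 members were called.

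At 15%, Gzma, Nkg7, Tbx21, Gzmb, Eomes, and Klrk1 had positive differences from the controls and Klrd1, Klrb1c, Ncr1, and Prf1 negative ones, and none was differentially expressed in limma or in the random variance test, compared with 29.1% of all genes. The dimmer probes of Klrb1c and Eomes had the opposite sign to the brighter ones used here. An unadjusted p below 0.05 was found for 3 members, compared with 55.9% of all genes, and the median log2 fold change was 0.36 over the members and -0.02 over all genes. Gzma had values of 8.74 to 11.72 with a median of 10.86, and 4 of 6 arrays lay above every control. Its difference was 1.06 (SE 0.46, adjusted p = 0.0672). Nkg7, a granule membrane protein of killer cells, had values of 8.04 to 9.46 with a median of 9.05, compared with 7.63 to 8.40 and a median of 8.16 in the controls, and differed by 0.79 (SE 0.29, adjusted p = 0.0336). Tbx21 differed by 0.74 (SE 0.28, adjusted p = 0.0429), again with 4 of 6 arrays above every control.

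The lowest Gzma value at 15% came from replicate 3, the array on slide 10. It read 8.74, compared with a mean of 11.05 over the other 5 arrays of the group and with 8.80 for the control on the same slide. Without that array Gzma was called, with a difference of 1.45 (adjusted p = 0.00289 in limma), and it was the only member called. On slide 10 alone, 5 of 10 members were higher at 15% than in the control, with differences from -0.43 to 1.26 and a median of -0.01. The same slide gave the 5% array 4 members above the control, with a median of -0.22. With slide or session as a block, the differences at 5 and 15% rest on these single pairs of slide 10. Those fits cannot decide whether a member changed.

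In the 25% mixed field, Gzmb and Tbx21 rose, which encode granzyme B and T-bet. These were 2 of 10 members, near the share of all genes called in this comparison, which was 24.8% in either direction and 10.9% higher. All 10 members had a positive difference, from 0.07 for Prf1 to 1.12 for Gzmb, with a median of 0.59, whereas the median of all genes was -0.12. An unadjusted p below 0.05 was found for 5 members, compared with 54.2% of all genes. With normexp background correction only 5 of 10 were above 0, with a median of -0.09 and 0 called. In the deposited log2 values 7 of 8 were above 0, and 9 of 10 were above 0 with array weights, without control replicate 3 on slide 10, and without 25% replicate 1.

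Gzmb had a lowest value of 4.09, a median of 4.83, and a highest of 4.94 in the controls. At 25% these were 5.32, 5.79, and 6.16. All 6 irradiated mice lay above all 6 controls, a separation that 27.6% of all genes shared. The log2 fold change was 1.12 (SE 0.24, 95% interval 0.61 to 1.62), a 2.17-fold rise with an adjusted p of 0.00164 in limma. Leaving out replicate 2 of the 25% mixed field ended the call, with a log2 fold change of 1.03 and an adjusted p of 0.00501, because its p then passed 0.001.

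Tbx21, which encodes T-bet, had values of 4.72 to 5.47 with a median of 5.04 in the controls and of 5.35 to 6.50 with a median of 6.16 at 25%, and 5 of 6 irradiated mice lay above all controls. The log2 fold change was 0.97 (SE 0.22, 95% interval 0.50 to 1.45), a 1.96-fold rise with an adjusted p of 0.00291 in limma. The call ended in 9 of the 12 fits that left out 1 array, namely control replicates 1, 3, 4, 5, and 6 and 25% replicates 1, 2, 4, and 6, with log2 fold changes from 0.89 to 1.00 and adjusted p values from 0.00571 to 0.00807. In each of these the adjusted p was below 0.05 and the unadjusted p above 0.001. The call also ended with a single model over all 36 arrays (adjusted p = 0.0109) and with the deposited expression table (adjusted p = 0.013).

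Nkg7 also separated the groups, with 8.43 to 9.26 and a median of 8.85 at 25%. Its log2 fold change of 0.78 (SE 0.22) had an adjusted p of 0.0102 in limma, and it was not called because its unadjusted p missed the threshold. Klrk1, which encodes the activating receptor NKG2D, differed by 0.84 (SE 0.29, adjusted p = 0.0287), and Gzma by 0.81 (SE 0.34, adjusted p = 0.0649). What the Klrk1 probe measures is uncertain. Prf1 differed by 0.07 with an interval from -0.40 to 0.54. Klrd1 differed by 0.08 and Ncr1 by 0.22, and in both the interval held 0.

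**Figure D3:**
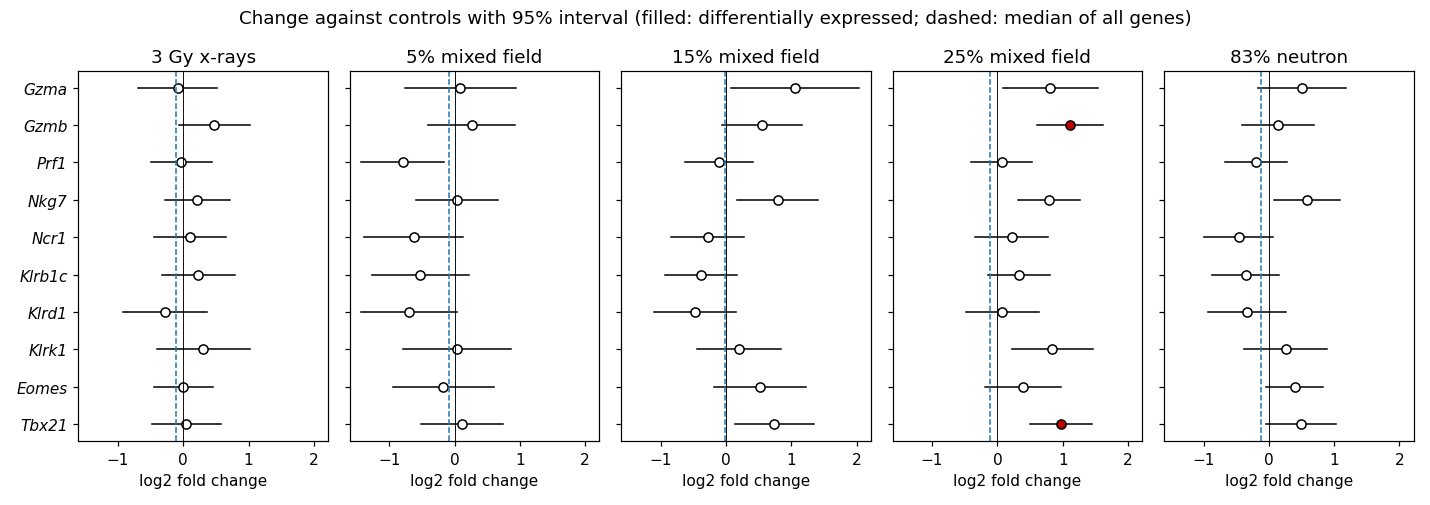
Log2 fold change against controls (horizontal axis) of the 10 members (vertical axis) in the 5 exposures. Lines are 95% intervals from limma, filled points are differentially expressed, and the dashed line is the median of all genes. The filled points are Gzmb and Tbx21 in the 25% mixed field.

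Neutrons alone, at the neutron dose of the 25% mixed field, gave 0 called members in limma and in the random variance test, whereas 36.6% of all genes were called. One member, Nkg7, had an unadjusted p below 0.05, compared with 64.1% of all genes. Its median was 8.76 and its highest value 9.20, 4 of 6 arrays lay above all controls, and the difference was 0.59 (SE 0.23, adjusted p = 0.0429). Gzmb had values of 3.96 to 5.43 with a median of 4.88, a difference of 0.14 from the controls (SE 0.25, 95% interval -0.40 to 0.69). The median log2 fold change of the members was 0.20 and that of all genes -0.12. Scaling to the 75th percentile of each array moved the median of all genes from -0.116 to 0.152, and Nkg7 and Eomes were then called as higher in 83% neutron, with log2 fold changes of 0.86 and 0.66. The direction of Eomes is not settled. With median scaling its dimmer probe averaged -0.18 in 83% neutron, compared with 0.28 in the controls, and the deposited values gave a difference of -0.80.

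The 25% mixed field and 83% neutron share the neutron dose and a scan session, and their difference was tested directly. No member was differentially expressed, compared with 11.4% of all genes, and 4 members had an unadjusted p below 0.05, compared with 39.6%. Gzmb was lower in 83% neutron by 0.97 on the log2 scale (SE 0.26, adjusted p = 0.0152 in limma), and 5 of 6 arrays lay below all arrays of the 25% mixed field. Klrb1c differed by -0.69 (SE 0.22, adjusted p = 0.0333). Of the 10 members 9 had a negative difference, with a median of -0.45. On slide 8, the only slide with both groups and 2 arrays of each, 8 members were instead higher in 83% neutron, with differences from -0.29 to 0.41.

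Against x-rays, no member was differentially expressed in any of the 4 exposures that contain neutrons, in limma or in the random variance test. The share of all genes called was 0, 4.09, 2.61, and 12.9% in the 5, 15, 25% mixed field, and 83% neutron. The members with an unadjusted p below 0.05 numbered 1, 2, 4, and 2 in the same order, compared with 23.3, 28.1, 29.4, and 40.1% of all genes. At an adjusted p below 0.05 alone the members numbered 0 in all 4, compared with 0, 9.97, 5.18, and 28.1% of all genes. The median member difference was -0.24, 0.00, 0.46, and -0.05. The smallest adjusted p was that of Tbx21 at 25%, 0.0719, with a difference of 0.93 (95% interval 0.30 to 1.56). These comparisons and those with controls share arrays, so that their values are not independent of each other. With the same looser threshold, the members numbered 0, 1, 2, 4, and 1 against controls after x-rays, 5, 15, 25% mixed field, and 83% neutron, where 58.9, 44.5, 49.7, 47, and 59.6% of all genes passed. In 83% neutron against the 25% mixed field they numbered 2, compared with 26.1% of all genes.

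The receptors and Eomes had no call in any comparison, and their levels overlapped with the controls in each exposure. Ncr1 had a lowest value of 2.34, a median of 3.22, and a highest of 3.52 in the controls, and its medians were 3.18, 2.32, 2.82, 3.20, and 2.60 after x-rays, 5, 15, 25% mixed field, and 83% neutron. Klrd1 ranged from 4.22 to 5.75 with a median of 5.26 in the controls, and its medians in the same order were 4.92, 4.17, 4.58, 5.21, and 4.96. Both had their lowest group median at 5% and their highest in the controls. The brighter Klrb1c probe ranged from 3.92 to 5.05 with a median of 4.68 in the controls, and its medians were 4.84, 4.2, 4.28, 4.94, and 4.35. The Klrk1 probe ranged from -0.19 to 1.51 with a median of 1.24 in the controls, and its medians were 1.29, 0.83, 1.06, 1.72, and 1.44. The brighter Eomes probe ranged from 3.28 to 4.05 with a median of 3.52 in the controls, and its medians were 3.71, 3.21, 4.35, 3.92, and 4.15. All 5 genes had their lowest exposed median at 5%. The groups overlapped, so the order of neighbouring medians is not settled. By comparison, the medians of Gzmb were 4.97, 4.94, 5.05, 5.79, and 4.88 and those of Tbx21 5.12, 5.02, 6.02, 6.16, and 5.51 in the same order.

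The members were also set against a B-cell gene, a ratio in which most genes of the array rose. Cd79b, which encodes a subunit of the B-cell receptor, fell by 4.86, 4.30, 4.77, 4.34, and 1.56 on the log2 scale after x-rays, 5, 15, 25% mixed field, and 83% neutron (adjusted p at most 1.19e-05 in limma). All 10 members rose in ratio to Cd79b in all 5 exposures, and all 6 irradiated arrays lay above all 6 controls in each of these 50 comparisons (exact two-sided permutation p = 0.00216, the smallest that 924 splits allow, adjusted p = 0.00367 over 100 ratio tests). The median rise was 4.93, 4.23, 5.12, 4.93, and 1.76 on the log2 scale. Of all genes tested, 94.8, 94.4, 96.4, 98.2, and 59.6% also had every exposed array above every control in ratio to Cd79b, and the size of the rises is close to the size of the fall of Cd79b. In the exposures with x-rays the count of members is therefore near that of all genes. In 83% neutron no member fell by more than 0.46 while Cd79b fell by 1.56, so every mean ratio rose. The members also vary together across mice, so there too the count is not a result about the members. Directly compared, the ratio of Gzmb to Cd79b was lower in 83% neutron than at 25% by 3.76 on the log2 scale (exact permutation p = 0.00216, adjusted p = 0.00289 over 20 tests). Cd79b itself was higher in 83% neutron by 2.78, and Gzmb was lower by 0.97 and not called. All 10 members had the same exact p in this ratio, including Eomes, whose own difference was 0.001. The share of all genes was not computed, so this test cannot show a change of the members.

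Relative to a T-cell gene, not every member passed the test. Cd3e, which encodes a subunit of the T-cell receptor complex, was not differentially expressed in any exposure (log2 fold changes from -0.68 at 5% to 0.12 for 83% neutron). The ratio of a member to Cd3e was higher than in the controls in 10, 8, 9, 10, and 6 of 10 members after x-rays, 5, 15, 25% mixed field, and 83% neutron, with medians of 0.48, 0.61, 0.79, 0.71, and 0.08. The exact permutation test with an adjusted p below 0.05 was passed by 3, 4, 5, 6, and 2 members, all of them higher. The adjustment covered all 100 ratio tests. Those to Cd79b all had the smallest exact p, so the adjustment was looser than for Cd3e alone. Klrb1c at 25%, for example, passed with an exact permutation p of 0.0346 and an adjusted p of 0.0495. At an unadjusted exact p below 0.05 the counts were 3, 5, 5, 7, and 2, compared with 54.1, 46.6, 48.2, 48.9, and 58.9% of all genes. Without control replicate 3, the control on slide 10, 5 members passed in 83% neutron, of which 4 were lower and 1 higher, and the median was -0.17. With Cd3d, another subunit, as the reference, the counts at an adjusted p below 0.05 were 10, 10, 10, 10, and 9. Cd3d itself differed by -1.05, -1.50, -1.25, -0.54, and -0.81 in the same order, called at 5 and 15% only. The statement about T cells therefore depends on the reference gene, whereas with Cd79a, the partner of Cd79b, as the B-cell reference the counts were 10, 10, 10, 10, and 9. The share of all genes was not computed for Cd3d or Cd79a, so these counts are not a result about the members.

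**Figure D4:**
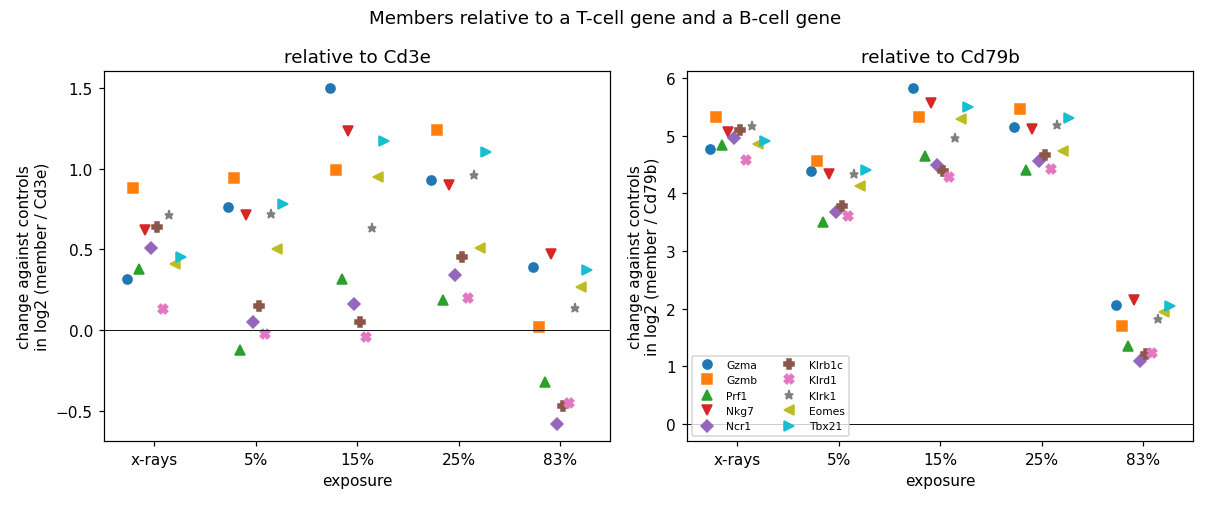
Change against controls in the log2 ratio of each member to Cd3e (left) or Cd79b (right), on the vertical axes, by exposure on the horizontal axes. Each symbol is 1 member, as the difference between means of 6 arrays. On the right all symbols lie above 0, between 1.10 and 5.83, and on the left some lie below it, the lowest at -0.58.

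Markers of some other blood cells differed in the same arrays. The 10 B-cell markers were all lower in the 4 exposures with x-rays and 9 of them in 83% neutron. The summed level of that list ranged from 11.34 to 12.20 in the controls and from 6.18 to 9.35 after x-rays. T-cell markers were called as lower in 5, 6, 6, 4, and 3 of 16 genes, where 16.9, 14, 16.5, 13.9, and 20.5% of all genes were lower, with a summed level of 10.42 to 11.21 in the controls and of 9.28 to 10.79 at 5%. Red-cell markers rose in 5, 5, 5, 4, and 8 of 8 genes and platelet markers in 0, 0, 3, 4, and 1 of 7, where 12.9, 9.04, 12.6, 10.9, and 16.1% of all genes were higher. The summed level of the 7 platelet markers ranged from 12.45 to 13.35 in the controls and from 13.88 to 14.99 in the 25% mixed field. Its median was 13.13 in the controls and 13.63, 14.03, 14.72, 14.24, and 13.78 in the same order of exposures, highest at 15%. The part of these shifts in the values of the members was not tested.

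Probes of the same gene changed by different amounts for Klrb1c, Eomes, and Nkg7. Klrb1c encodes NK1.1, the antigen by which NK cells of C57BL/6 mice are stained. Its brighter probe is annotated to mm9 chr6:128729611-128729670 and its dimmer probe to chr6:128734770-128734829, both on the minus strand, and the Eomes probes to chr9:118394425-118394484 and chr9:118395189-118395248 on the plus strand. The first 30 of the 60 bases of each are shown because the probes lie at different places of their transcripts. All letters are in lower case because no part is singled out.
Klrb1c brighter probe: tgcttatgaagttggtatgctgaagacagt
Klrb1c dimmer probe: tgcgagtcttagtacaaaaaccatcaagag
Eomes brighter probe: gctatgaagaacgagtgcccggtgctatta
Eomes dimmer probe: tcataagtcatttttaataaatgtggttca

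In the controls the brighter Klrb1c probe exceeded the dimmer by 2.96 ± 0.17 (SD, n = 6) on the log2 scale. This gap shrank by 0.80, 1.18, 0.57, and 0.76 in the 5, 15, 25% mixed field, and 83% neutron (exact permutation test, adjusted p = 0.0195, 0.0253, 0.0244, and 0.0108 over 15 tests), and by 0.13 after x-rays (adjusted p = 0.247). At 15% the brighter probe differed from the controls by -0.39 and the dimmer probe by 0.79 (neither called). In 83% neutron the brighter probe averaged 4.24, compared with 4.59 in the controls, and the dimmer 2.04, compared with 1.64. The Eomes probes went the other way, with a gap that widened by 0.92, 1.23, 0.41, and 0.85 in the same order (adjusted p = 0.0108, 0.0195, 0.0488, and 0.0108). The dimmer Eomes probe was well above background on 13 arrays only. The gap between the 2 Nkg7 probes widened at 15% by 0.28 and in 83% neutron by 0.23 (adjusted p = 0.0244 each), and its change was 0.17, 0.18, and 0.06 after x-rays, 5, and 25% (adjusted p = 0.0945, 0.0948, and 0.387). Both gave the same sign in every exposure except 5%, where they read 0.04 and -0.14. At 15% the brighter Eomes probe differed by 0.52, whereas the dimmer averaged -0.43, compared with 0.28 in the controls. In the deposited log2 table, Eomes differed by -0.88 at 15% and by -0.80 in 83% neutron, and Klrb1c by 0.71 at 15%. The deposited values therefore do not settle the direction of Klrb1c and Eomes. The array annotation places the Klrk1 probe on mm9 chr16:78233089-78233148, whereas RefSeq has Klrk1 on chromosome 6, so what this probe measures is uncertain.

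**Figure D5:**
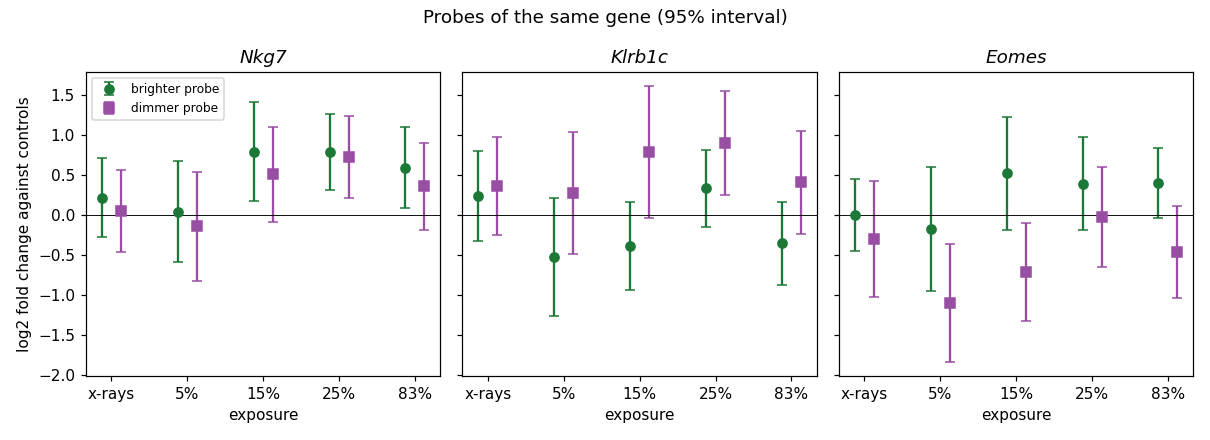
Log2 fold change against controls (vertical axis) of both probes of Nkg7, Klrb1c, and Eomes in the 5 exposures (horizontal axis), with 95% intervals from limma over 17963 probes. Circles are the brighter and squares the dimmer probe. In Klrb1c at 15% they lie at -0.39 and 0.79.

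Across mice of the same group, the members varied together. Pearson's r between 2 members, over the deviations of the 36 arrays from their group means, lay between 0.40 and 0.93 with a median of 0.76, and was above 0.5 in 44 of the 45 pairs. The closest pair was Klrd1 and the Klrk1 probe (0.93), followed by Nkg7 and Tbx21 (0.92), and the most distant was Gzma and Klrb1c (0.40). Among all genes, the closest to Gzma were the probe A_55_P2011341, which the array gives no gene name (0.99), Serpinb9, an inhibitor of granzyme B (0.96), and Ms4a4b (0.93). Those closest to Gzmb were Sytl2, a regulator of granule transport, Il12rb1, and Ifng (0.86 to 0.88). Tbx21 lay closest to Sytl3, Nkg7, and Tnfrsf25 (0.90 to 0.92), and Nkg7 to Thy1, D8Ertd82e, and Tbx21 (0.92 to 0.94). Prf1 lay closest to Klra4, the probe A_55_P2157522, and Klra15, and Eomes to Adamts14, Klra8, and Klra4, where the Klra genes encode the Ly49 receptors and share sequence with each other. Klrd1 lay closest to Klrk1, Cd3g, and Sh2d1a, Klrk1 to Klrd1, Ncr1, and ENSMUST00000142135, Ncr1 to ENSMUST00000122033, Klri2, and Klrk1, and Klrb1c to ENSMUST00000103299, Ncr1, and Cxcr3. The arrays share slides, sessions, and their centring, and these values are a description. Correlations between pairs of all genes were not computed, so the values do not set the members apart from other genes.

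Around the members stands a wider NK pathway of granule proteins, receptors and their adaptors, cytokines and their receptors, and transcription factors. Of the 102 genes listed, 83 were tested. Compared with controls, 1 rose and 10 fell after x-rays, 1 rose and 6 fell at 5%, 3 rose and 9 fell at 15%, 5 rose and 6 fell at 25%, and 6 rose and 3 fell in 83% neutron. Of all genes, 29.8, 23.1, 29.1, 24.8, and 36.6% were called in the same exposures. With slide as a block, 0 pathway genes were called after x-rays. At 5 and 15% a slide or session block rests on slide 10 alone, with 1 array of each group, and cannot decide. The median over the list was -0.21, -0.23, 0.06, 0.19, and 0.11, beside -0.11, -0.08, -0.02, -0.12, and -0.12 over all genes.

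Among granule genes, Gzmk rose by 2.10 on the log2 scale in 83% neutron (SE 0.24), where 5 arrays read 2.50 to 3.30 with a median of 2.94 and the controls 0.36 to 1.64. The sixth array was left out because its spot was not uniform. Lamp1, a membrane protein of lytic granules, rose by 1.00 at 15%, and Stxbp2, required for granule release, fell by 1.32 at 25% and by 1.22 in 83% neutron. Among receptors and adaptors, Cd244 rose by 2.00 at 15%. The signaling genes Syk (-1.52 after x-rays), Vav1 (-1.42 at 5%, -1.20 at 25%, and -0.87 in 83% neutron), and Cd247 (-1.34 at 15%) fell. A pathway gene is given only for exposures where it was among the largest calls, and it may have changed in others. Vav1 was also lower after x-rays (7.56 on slide 10, mean 7.26 elsewhere) and at 15% (7.23 and 7.30). The controls read 8.26 and 8.45 in the same order. Syk and Vav1 also act in B-cell receptor signaling.

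Among cytokines and their receptors, Il15ra was the gene that rose in every exposure with neutrons. Il15ra presents IL-15, the survival factor of NK cells, and had a lowest value of 5.19, a median of 5.27, and a highest of 5.50 in the controls. After x-rays these were 5.39, 5.74, and 5.89 (log2 fold change 0.39, not called). Il15ra ranged from 5.51 to 7.56 (median 6.74) at 5%, from 5.49 to 8.33 (median 7.63) at 15%, from 5.77 to 6.79 (median 6.47) at 25%, and from 6.53 to 7.24 (median 6.80) in 83% neutron. The log2 fold changes were 1.46, 2.06, 1.07, and 1.53 (adjusted p from 1.54e-06 to 0.00202 in limma). Only 1 array of these 4 groups, at 15%, lay within the control range. The arrays of the 5 and 15% mixed fields on slide 10 read 5.51 and 5.49, beside 5.21 for the control and 5.88 for the x-ray array of that slide. The other arrays of the 5 and 15% groups averaged 7.03 and 7.76. The result at 5 and 15% thus rests on the arrays of session 2. At 25% and in 83% neutron, session and radiation cannot be told apart. Cd244 at 15% showed the same, with 4.70 on slide 10 and a mean of 7.31 elsewhere.

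At 25%, Ifng (1.15), the main effector cytokine of NK cells, and Il2rb (1.02), the receptor chain shared by IL-2 and IL-15, rose with Gzmb and Tbx21. Il2rg, the common gamma chain, fell by 1.43 at 5% and by 1.34 at 15%. It was also lower after x-rays, with 5.51 on slide 10 and a mean of 5.00 elsewhere. The controls read 6.76 and 6.37 in the same order. Il12rb2, a subunit of the IL-12 receptor, rose by 1.44 after x-rays. Among transcription factors, Ets1, needed for lymphocyte development, fell by 1.90 after x-rays and by 2.09, 2.01, and 1.51 in the 5, 15, and 25% mixed fields. Irf8 fell by 1.42 after x-rays and Gata3 by 0.86 in 83% neutron, while Runx3, which acts with the T-box factors, rose by 1.38 in 83% neutron. Gata3 was also lower at 5% (3.05 on slide 10, mean 3.36 elsewhere) and at 15% (3.28 and 3.30). In the same order the controls read 4.08 and 4.09, and the x-ray arrays 4.04 and 3.47. Ets1 and Irf8 are also expressed in B cells, whose markers fell in the same arrays, and a link between these falls was not tested.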

How the data were processed

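Blood RNA of 36 mice, depleted of globin transcripts, had been hybridized to Agilent single-colour mouse arrays, 1 array per mouse. The authors deposited the scanner output, which holds an intensity for each spot, background-corrected by Agilent Feature Extraction 12.0.2 per the submitters' processing notes, and a table of log2 expression values. Groups were taken from the array titles. The spots of a probe that were uniform were averaged after log2, and the median of each array was subtracted. A probe was retained if its spot passed the scanner's test against background on more than 75% of all arrays (21484 of 39429 probes) and if at least 20% of arrays lay 1.5-fold or more from its median (17963 probes). The filter had been planned on a stricter measure, well above background. The brightest probe of a gene was kept, which left 15085 genes. Each comparison of 2 groups was fitted with limma 3.58.1 (R 4.3.3) on its 12 arrays. A call required p below 0.001 and, after Benjamini-Hochberg adjustment, below 0.05. The fit was tested on simulated data. Ratios to Cd3e and Cd79b and probe differences were tested by exact two-sided permutation over the 924 splits of 6 against 6 arrays.

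All members are named. Of the pathway lists, the called genes that rose most and those that fell most, up to 3 each way per exposure, are named. The markers Cd3e and Cd79b and the 3 genes with the closest pattern to each member are also named. Cd3d and Cd79a were alternative references. The members and lists were chosen with earlier results of these data known. The mice are separate animals. Per array, 22867 to 28563 probes were significantly above background, and the precision is set by the number of arrays. The deposited log2 table, whose exact centring is not known, correlated with the log2 scanner intensity at 0.995 or more on each array. Array medians in it were 6.28 to 6.99. It holds 14216 named genes, among them 8 of the members, since Prf1 and Klrd1 were not used from it. It served as an alternative. Alternatives also changed scaling, background correction, a floor on intensities, filters, choice of probe, samples in the fit, blocks for replicate number, slide, and session, array weights, test, and threshold, and left out each array in turn. A replicate number did not pair the arrays, since deviations of arrays with the same number correlated at 0.037 on average (90 pairs) and those of other arrays at -0.0063.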

Additional observations from a re-analysis of the deposited data

Results flagged for a closer look

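Among 28 named genes in 6 groups, 4 of 168 sets of 6 arrays held an array far from the other 5, and none was in a member. Chance flags about 1 in 20 such sets. Il12rb2 read 0.37 on replicate 6 of the 15% mixed field, with the nearest array at 1.13. Il15ra read 5.49 on replicate 3 of the 15% mixed field, the array on slide 10, with the nearest at 7.52. Ifng read 5.14 on replicate 2 of 83% neutron, with the nearest at 3.64. Runx3 read 0.31 on replicate 3 of the 5% mixed field, with the nearest at 1.82.

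No member differed between exposures past the threshold, but 6 other named genes did. Compared with x-rays, Il12rb2 was lower at 15% (-1.74, adjusted p = 0.0161 in limma) and at 25% (-1.75, adjusted p = 0.0307). At 15%, Il15ra was higher than after x-rays by 1.67 (adjusted p = 0.0218) and Cd244 by 1.96 (adjusted p = 0.0222), and both values at 15% rest on arrays of session 2. In 83% neutron, Cd79b was higher than after x-rays by 3.30 (adjusted p = 0.00053), Syk by 1.07 (adjusted p = 0.00531), Irf8 by 1.45 (adjusted p = 0.00301), Il15ra by 1.14 (adjusted p = 0.00057), and Cd244 by 1.15 (adjusted p = 0.00391). The arrays of the 25% mixed field and 83% neutron were all in session 3 and those of x-rays were not. Session and radiation therefore cannot be told apart in these comparisons with x-rays. Cd79b was also higher in 83% neutron than in the 25% mixed field, by 2.78 (adjusted p = 2.45e-05).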

How the results depend on the processing

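Of 3020 log2 fold changes of members recomputed under the alternatives, 2767 kept their direction and their side of the threshold, 16 lost a call, 22 gained one, 215 changed sign without a call, and 0 reversed a call. Counts below follow the order x-rays, 5, 15, 25% mixed field, 83% neutron against controls, where the main counts of members were 0, 0, 0, 2, and 0 and those of the 83 pathway genes 11, 7, 12, 11, and 9.

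Normexp background correction ended the calls of Gzmb and Tbx21 at 25% (0.34, adjusted p = 0.626, and 0.23, adjusted p = 0.708). It left 0 members there and 0, 0, 0, 0, and 1 pathway genes, with 8 members passing in ratio to Cd3e after x-rays. It gave negative member medians of -0.60, -1.15, -0.09, and -1.08 after x-rays, 5, 25% mixed field, and 83% neutron and of 0.06 at 15%. Over all genes, it called 729 to 1138 in place of 3483 to 5522. Scaling to the 75th percentile, which moved the median of all genes from -0.114 to 0.231 after x-rays, gave 7 pathway genes after x-rays, 19 at 25%, and 15 in 83% neutron, and 2 members in 83% neutron. The median of common bright probes gave 20 and 17 pathway genes at 25% and in 83% neutron and 2 members in the latter, and quantile normalization 13, 20, and 14 pathway genes at 5%, 25%, and in 83% neutron and 1 member in the last.

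Adjusted p below 0.05 alone gave 1, 2, 4, and 1 members at 5, 15, 25%, and 83%, 2 for 83% neutron against 25%, and 24, 26, 31, 31, and 28 pathway genes, with 8878, 6716, 7490, 7093, and 8990 of all genes. Array weights gave 2 members at 15% (Nkg7 and Tbx21), 1 at 15% against x-rays (Gzma), 15 and 16 pathway genes at 5% and in 83% neutron, and 5732 of all genes at 5%. The deposited table gave 1 member at 25% and 15 and 16 pathway genes at 5% and in 83% neutron. A single model over all arrays gave 1 member at 25%, 16 and 3 pathway genes at 5% and in 83% neutron, and 3474 of all genes in 83% neutron. A floor of 10 gave 15 pathway genes at 5%, and the filter of well above background on every array 11. With no background filter 13054 genes were called in 83% neutron. Cd3d in place of Cd3e gave 10, 10, 10, 10, and 9 members, and the share of all genes was not computed. The planned filter, run after seeing the data, gave 0, 0, 0, 2, and 0 members.

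With slide as a block, 0 members, 0 pathway genes, and 1268 of all genes were called after x-rays. At 5 and 15%, slide 10 alone held both groups, with 1 array of each. The slide and session blocks rest on that pair there and cannot decide. With the replicate block, 1 member was called at 25%, where Tbx21 lost its call (adjusted p = 0.0093), and 3, 4, 5, and 6 pathway genes after x-rays, 5, 15, and 25%, with 2906 of all genes after x-rays and 2101 at 5%. The numbers do not pair the arrays. Without the arrays of session 4, a choice made after seeing the data, 1 member was called at 25%, 6 pathway genes after x-rays and 6 at 25%, and 5 members passed in ratio to Cd3e in 83% neutron, 4 of them lower and 1 higher, where with all arrays 2 passed, both higher.

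Leaving out each array in turn gave 0 to 0, 0 to 0, 0 to 1, 0 to 2, and 0 to 0 members against controls, 0 to 1 at 15% and 0 to 0 in the other 3 exposures against x-rays, and 0 to 1 for 83% neutron against 25%. The members gained were Gzma at 15% without replicate 3 and Gzmb, lower in 83% neutron than at 25% without 83% replicate 2 (-1.11, adjusted p = 0.00923). Pathway counts were 6 to 12, 4 to 13, 8 to 14, 6 to 15, and 8 to 12. In ratio to Cd3e 2 to 6, 3 to 5, 5 to 6, 4 to 6, and 1 to 5 members passed (the 5 without control replicate 3, with 4 lower), and in ratio to Cd79b 10 in each. The causes of these changes were not tested.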

Other observations

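Single arrays carried the members together. The 5% replicate 1 was highest in its group for all 10 members and the x-ray replicate 2 lowest for all 10, while 83% replicate 4 was lowest for 9 and 25% replicate 1 highest for 7. On slide 10, all 10 members were lower at 5% than after x-rays, by values from -1.09 to -0.62, and all 10 were lower at 15% than after x-rays, from -0.92 to -0.41, with 1 array of each group.

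In ratio to Cd3e, Gzmb was lower in 83% neutron than in the 25% mixed field by 1.22 on the log2 scale, as were Klrb1c by 0.93, Ncr1 by 0.92, Klrk1 by 0.83, and Klrd1 by 0.65 (exact permutation test, adjusted p = 0.00289 over 20 tests). In the same test, Tbx21 differed by -0.73 (adjusted p = 0.0127), Prf1 by -0.51 (adjusted p = 0.0108), and Nkg7 by -0.43 (adjusted p = 0.0289). The ratio of Eomes differed by -0.24 (adjusted p = 0.314) and that of Gzma by -0.54 (adjusted p = 0.114). The 20 tests include the ratios to Cd79b, all with the smallest exact p, which loosens the adjustment. The share of all genes was not computed. On slide 8, the only slide with both groups, the levels of 8 members were instead higher in 83% neutron, and ratios there were not tested.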
